A study of Mus musculus with 2 samples.

Results

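The miR-29 family of the mouse is made from 4 precursor genes at 2 places in the genome, Mir29b-1 with Mir29a on chromosome 6 and Mir29b-2 with Mir29c on chromosome 1. These 4 genes were chosen by symbol from the 2202 microRNA genes counted in 2 microRNA-seq libraries (RNA under 30 bases). The choice used no rule on their read counts, but earlier results of these data were known when it was made. The libraries are biological replicates 1 and 2 of a single group, the left cerebral cortex of male adult 5xFAD/CAST mice of 8 to 10 months. 5xFAD is a transgenic model of amyloid deposition whose transgenes are driven by the neuronal Thy1 promoter, and CAST commonly stands for a wild-derived inbred strain. Whether the sampled animals carried the transgenes is not stated in the labels. Both tissue samples bear 1 donor identifier, and their spread may therefore be technical. Controls were not analysed here, so what follows describes levels of the 4 genes, ratios among them and the spread between the 2 libraries.

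A microRNA precursor is a short hairpin from which a mature strand of its 5′ arm (5p) or its 3′ arm (3p) is loaded into the Argonaute protein, and the seed near the 5′ end of that strand pairs with target messenger RNAs and represses them. The miR-29 family is known for repressing collagens and other matrix genes and the DNA methyltransferases Dnmt3a and Dnmt3b. In the mouse brain its level rises as neurons mature, and there it limits pro-apoptotic proteins. It is also made in astrocytes. It has been studied in amyloid disease because Bace1, the beta-secretase that cuts the amyloid precursor protein, is among its reported targets.

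The main strands of the family are shown because their likeness decides which reads could be assigned to a gene. Capitals mark the seed, bases 2 to 8 counted from 1 at the 5′ end, and the sequences are those of RefSeq on GRCm38.p6, in which all 4 genes were found by symbol.
miR-29a-3p (Mir29a, chr6:31062673-31062694, minus strand): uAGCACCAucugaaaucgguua
miR-29c-3p (Mir29c, chr1:195037600-195037621, plus strand): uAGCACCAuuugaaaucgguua
miR-29b-3p (Mir29b-1, chr6:31063025-31063047, minus strand, and Mir29b-2, chr1:195037091-195037113, plus strand): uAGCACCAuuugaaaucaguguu

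These 3 sequences shared 1 seed, and no other mature sequence of the RefSeq table carried it at that position. miR-29a-3p and miR-29c-3p differed at 1 of 22 bases, C10U. From miR-29a-3p to miR-29b-3p there were 4 changes, C10U, G18A, U21G and A22U, and from miR-29b-3p to miR-29c-3p there were 3, A18G, G21U and U22A. miR-29b-3p ends in AGUGUU, a stretch described in human cells as a signal for import into the nucleus. The strand is the same at Mir29b-1 and Mir29b-2, so a read of exactly this strand matches both places. The deposited tables list reads that matched several places as a total of their own. In each column this total, the other unassigned lines and the gene counts sum to 1 and the same total, and from this layout it was inferred that such reads are in no gene count. The sources used here do not state it.

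The 5p strands of the 2 miR-29b loci are shown because they do differ between the loci, again with bases 2 to 8 in capitals.
miR-29b-1-5p (chr6:31063067-31063088, minus strand): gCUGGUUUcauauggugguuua
miR-29b-2-5p (chr1:195037050-195037074, plus strand): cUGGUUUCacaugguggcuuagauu

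Their longest run in common was 9 bases, so that a read of either could be placed at 1 locus. The deposited table gives 1 count for each precursor, and the 2 arms cannot be told apart in it.

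The whole precursors of the miR-29b loci are shown with the 3p strand in capitals, to let the bases on either side of it be compared.
Mir29b-1 (chr6:31063023-31063093, minus strand): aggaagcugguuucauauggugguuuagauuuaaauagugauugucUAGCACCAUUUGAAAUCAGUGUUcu
Mir29b-2 (chr1:195037040-195037120, plus strand): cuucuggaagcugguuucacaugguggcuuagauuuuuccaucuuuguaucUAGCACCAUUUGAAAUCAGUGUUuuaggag

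The longest run that these precursors shared was 25 bases, the 3p strand and the bases just before it. Of the 52 stretches of 20 bases in Mir29b-1, 9 were also found at another annotated microRNA gene (Mir29b-2 or Mir29c), as were 6 of 62 in Mir29b-2 and 3 of 69 in Mir29c. None of the 69 stretches in Mir29a was. The 3 in Mir29c belong to a run of 22 bases shared with Mir29b-1 that starts before the mature strand, and within the mature strands the run common to miR-29b-3p and miR-29c-3p was 17 bases. Only annotated microRNA genes were searched for such matches.

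The clusters had a like layout. In the direction of transcription the miR-29b precursor came first in each, with 275 bases between Mir29b-1 and Mir29a and 426 bases between Mir29b-2 and Mir29c. In the GENCODE M21 annotation of mm10, Mir29b-2 and Mir29c lie within an exon of the non-coding transcript A330023F24Rik-204 on the same strand, and opposite an exon of transcript Cd46-203 of Cd46, the gene of a complement regulator. On chromosome 6, Mir29a (chr6:31062660-31062747) overlapped no other annotated gene, and Mir29b-1 overlapped the long non-coding RNA Gm27019 by 2 bases. The predicted folding energy was -34.1 kcal/mol for the precursor of Mir29a and -34.8 for Mir29c (chr1:195037547-195037634), both of 88 bases, and -26.3 for Mir29b-1 (71 bases) and -31.1 for Mir29b-2 (81 bases).

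Of 16403925 reads in replicate 1, 4929428 counted towards a microRNA gene in sense and 6320188 matched several places. Of 16991914 reads in replicate 2, these were 4441328 and 5615203. Levels below are sense counts scaled to 1000000 assigned reads (CPM), so 1 read is 0.203 CPM in replicate 1 and 0.225 CPM in replicate 2, and they are not divided by length, since a read covers a whole mature strand. Errors are the SD of the 2 libraries (n = 2), and intervals are exact and cover counting error only. The label of the tissue was set beside microRNAs known from neurons, of which 11 of 13 were detected (at least 10 reads in each library). Over all genes, 417 of 2202 were. The summed level of the list was 56588 and 66144 CPM in replicates 1 and 2, led by Mir132, Mir128-1 and Mir137. Other members were low in assigned reads, with means of 3.48, 1.70 and 0.304 CPM for Mir124a-1, Mir124a-2 and Mir124a-3. Mir9-1, Mir9-2 and Mir9-3 had means of 33.4, 3.02 and 97.0 CPM. By the inference above, reads that match several places are missing from these counts. A low count at numbered loci such as these can therefore not be taken as the level of the mature strand.

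The 4 genes together held 76709 reads in replicate 1 and 70138 in replicate 2. This was 15561 and 15792 CPM, or 1.57 ± 0.0163% of the assigned microRNA reads. All 4 were detected, among 417 detected genes in all. No read of any of the 4 lay on the opposite strand, and the counts without regard to strand were the same as the sense counts.

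Mir29a, the precursor of miR-29a, carried most of the family's reads. It had 69649 reads in replicate 1 and 61763 in replicate 2, which is 14129 and 13906 CPM, with a mean of 14018 ± 158 CPM. The libraries were close to each other, and Mir29a ranked 13th of the detected genes in each library taken alone and 12th by the mean. These are ranks of assigned reads, from which reads that match several places are taken to be missing. Its share of the family's reads was 90.8% in replicate 1 and 88.1% in replicate 2.

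Mir29c, the precursor of miR-29c, came next in both libraries. It had 6536 and 7683 reads, which is 1326 and 1730 CPM, with a mean of 1528 ± 286 CPM. It took 8.52% and 11.0% of the family's reads, and ranked 75th of the 417 genes by mean CPM. Replicate 2 was the higher library, and in both the level was well below that of Mir29a.

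The precursors of miR-29b were low. Mir29b-2 had 363 and 352 reads, which is 73.6 CPM in replicate 1 and 79.3 CPM in replicate 2 (76.4 ± 3.97 CPM), with libraries that overlapped within counting error. Mir29b-1 had 161 and 340 reads, which is 32.7 CPM in replicate 1 (95% interval 27.8 to 38.1) and 76.6 CPM in replicate 2 (68.6 to 85.1), with a mean of 54.6 ± 31.0 CPM. They ranked 220th and 237th by mean CPM, near the middle of the detected genes, whose median level was 94.7 CPM. Both loci together gave 0.683% and 0.987% of the family's reads. Since reads of the whole miR-29b-3p strand match both loci, these values cannot be taken as the level of mature miR-29b.

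**Figure D1:**
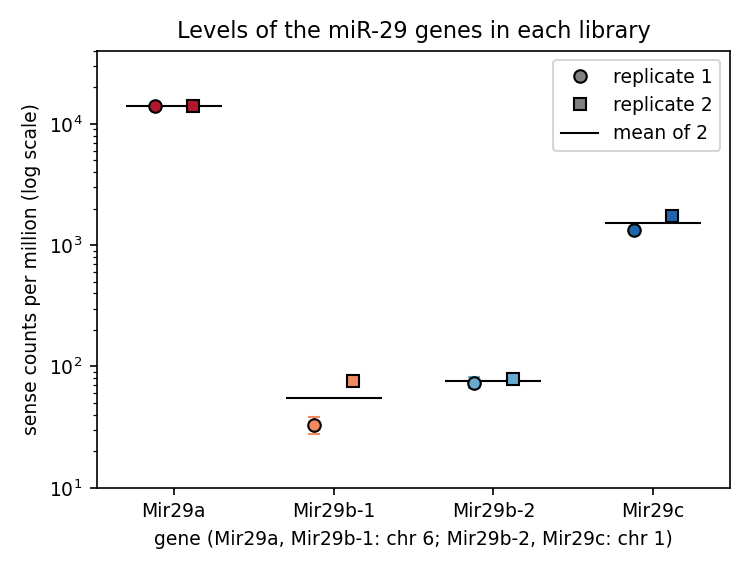
Sense CPM (log scale) of the 4 miR-29 genes in replicate 1 (circles) and replicate 2 (squares), with exact 95% Poisson intervals as bars, most of them hidden by the points, and the mean of both libraries as a line. Mir29a stands at 14129 and 13906 CPM, Mir29c at 1326 and 1730, and both miR-29b loci lie under 100 CPM.

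The order of the levels was Mir29a, Mir29c, Mir29b-2, Mir29b-1 in both libraries. The steps from Mir29a to Mir29c and from Mir29c to Mir29b-2 were far wider than the gap between the libraries. The step between the 2 miR-29b loci was not. Mir29b-2 held 69.3% of their joint reads in replicate 1 (65.1 to 73.2) and 50.9% in replicate 2 (47.1 to 54.7), so that in replicate 2 the loci were equal within counting error.

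The cluster on chromosome 6 gave about an order of magnitude more assigned reads than the cluster on chromosome 1. Mir29a and Mir29b-1 summed to 14162 and 13983 CPM in replicates 1 and 2, a mean of 14072 ± 127 CPM. Mir29b-2 and Mir29c summed to 1399.6 and 1809 CPM, a mean of 1604 ± 289.6 CPM. The chromosome 6 cluster was thus 10.1-fold higher in replicate 1 and 7.73-fold higher in replicate 2, and the log2 ratio was 3.14 ± 0.27. By the inference above, reads of the whole miR-29b-3p strand are in neither sum, so the ratio does not cover all products of the clusters.

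As a share of the family's assigned reads, the chromosome 6 cluster took 91.0% in replicate 1 (exact binomial interval 90.8 to 91.2) and 88.5% in replicate 2 (88.3 to 88.8). These intervals do not overlap, and the log2 ratio was lower in replicate 2 by a difference of -0.39. The difference between the clusters was in the same direction in 2 of 2 libraries and, being a ratio within a library, it did not depend on scaling. No test was run on it, since an exact permutation of signs over 2 libraries cannot give a two-sided p below 0.5. In tissue, fewer cells that make a microRNA and less of it in each cell cannot be told apart.

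Most of the contrast between the clusters in assigned reads lay in Mir29a and Mir29c, while reads of the shared miR-29b-3p strand are taken to be missing. Mir29a was 10.7-fold above Mir29c in replicate 1 and 8.04-fold in replicate 2. Between the miR-29b loci the direction was the opposite, with Mir29b-2 above Mir29b-1 by 2.25-fold in replicate 1 and by 1.04-fold in replicate 2, the latter within counting error.

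**Figure D2:**
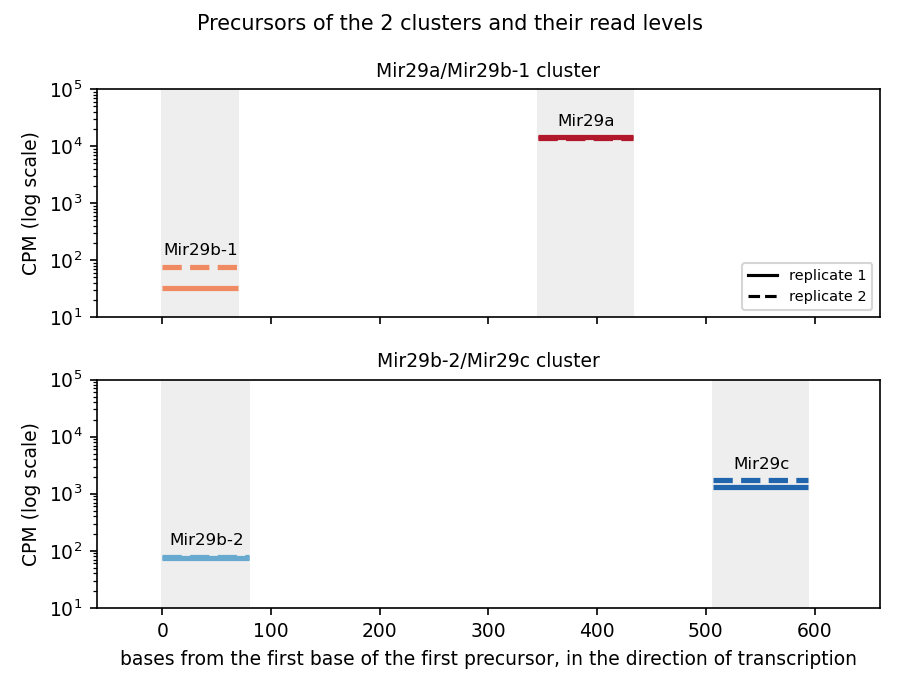
The precursors of each cluster (grey bands) against the distance in bases from the first base of the first precursor, in the direction of transcription, with their levels in CPM (log scale) in replicate 1 (solid) and replicate 2 (dashed). In both clusters the miR-29b precursor comes first and is the lower partner in assigned reads, from which reads of the whole miR-29b-3p strand are taken to be missing.

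Within each cluster the partners differed widely in reads. Mir29a was 433-fold above Mir29b-1 in replicate 1 and 182-fold above it in replicate 2, a mean log2 ratio of 8.13 ± 0.89. Mir29c was 18.0-fold and 21.8-fold above Mir29b-2, a mean log2 ratio of 4.31 ± 0.20. In both clusters and both libraries the miR-29b precursor was the lower partner in assigned reads, and its gap to its partner was wider on chromosome 6. Reads of the whole miR-29b-3p strand are taken to be missing from the miR-29b counts. These gaps are therefore not ratios of the mature products.

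These gaps were set beside those of all 107 pairs of detected microRNA genes that are next to each other on 1 strand with at most 10 kb between them, which involve 151 genes. The median pair had partners 2.86 apart on the log2 scale, as the mean of both libraries. The gap between Mir29a and Mir29b-1 was the widest of the 107 by this mean, ahead of Mir539 and Mir382 at 7.21. In replicate 2 alone it was 7.51, and the gap between Mir539 and Mir382, at 7.87, and that between Mir487b and Mir539, at 7.85, were wider. The gap between Mir29c and Mir29b-2 was the 31st widest. These are ranks of deposited counts, read as leaving out reads that match several places.

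Both miR-29 pairs joined a partner whose mature strand is made at a second locus to one whose strands are not. In RefSeq this held for 18 of the 98 pairs with mature sequences for both partners, and in 13 of the 18 the partner with the repeated strand was the lower. The median gap was 4.65 on the log2 scale in these 18 pairs (range 0.04 to 8.13), 2.89 in the 76 pairs in which no strand was repeated and 2.99 in the 4 in which both partners had one. The ranges overlapped, pairs within a cluster share genes, and these values are a description with no test.

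**Figure D3:**
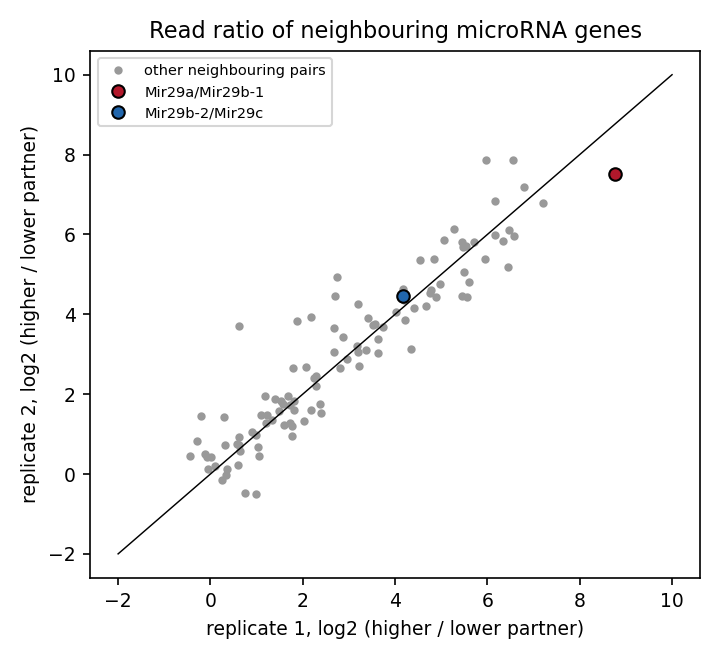
Log2 ratio of the higher to the lower partner in replicate 1 (horizontal) and replicate 2 (vertical) for the 107 neighbouring pairs of detected microRNA genes, with the line of equal ratios. Mir29a/Mir29b-1 is farthest out in replicate 1, at 8.76, and stands at 7.51 in replicate 2, below the line, while Mir29b-2/Mir29c lies near the line at 4.17 and 4.45.

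The ratio of the partners also differed between the libraries. The log2 ratio of Mir29a to Mir29b-1 was lower in replicate 2 by a difference of -1.25 (adjusted p = 3.36e-20, Fisher's exact test, two-sided, with Benjamini-Hochberg adjustment over the 107 pairs). The ratio of Mir29c to Mir29b-2 was higher in replicate 2 by 0.28 (adjusted p = 0.0218, same exact test). Of all pairs, 62.6% passed this test and 15.9% changed at least 2-fold, so a call as such was common. In size, the change at Mir29a and Mir29b-1 was the 11th widest of the 107 and the change at Mir29c and Mir29b-2 the 68th, against a median of 0.41. The test compares these 2 libraries and not conditions.

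Gene by gene, 3 of the 4 members differed between the libraries in an exact two-sided binomial test of the counts (adjusted p below 0.05 over the 417 detected genes), where 59.2% of all tested genes did. This test holds counting error alone and compares 2 libraries. Mir29b-1 was 2.34-fold higher in replicate 2, a log2 ratio of 1.23 (95% interval 0.95 to 1.51, adjusted p = 1.20e-19 in the binomial test). It was the 32nd widest of the 417 ratios and the only member at least 2-fold apart, which 11.8% of all tested genes were.

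For Mir29c the log2 ratio was 0.38, higher in replicate 2 (0.34 to 0.43, adjusted p = 1.01e-55 in the binomial test), a 1.30-fold gap beside a median of 1.29-fold over all detected genes. Mir29b-2 differed by 0.11 (interval -0.11 to 0.32, adjusted p = 0.427 in the binomial test). The 2 members called higher in replicate 2, Mir29c and Mir29b-1, read against 24.7% of tested genes called in that direction.

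For Mir29a the log2 ratio was -0.02 (-0.04 to -0.01, adjusted p = 0.00751 in the binomial test), a 1.02-fold gap. Its sign depended on the scaling, since it was 0.0298 with TMM factors and 0.0251 with DESeq2 size factors, so no direction is given for it. Among the detected genes 34.5% were called lower in replicate 2. The gap of Mir29a ranked 403rd of 417 in size. The spread over all detected genes, fitted by edgeR as a biological coefficient of variation that leaves out counting error, was 0.340. The SD of the 2 libraries over their mean, which includes counting error, was 1.12% for Mir29a, 5.19% for Mir29b-2, 18.7% for Mir29c and 56.8% for Mir29b-1. These are unlike measures, so the members cannot be placed against 0.340 by them. By the size of the gap between the libraries, Mir29c ranked 204th and Mir29b-2 342nd of 417.

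**Figure D4:**
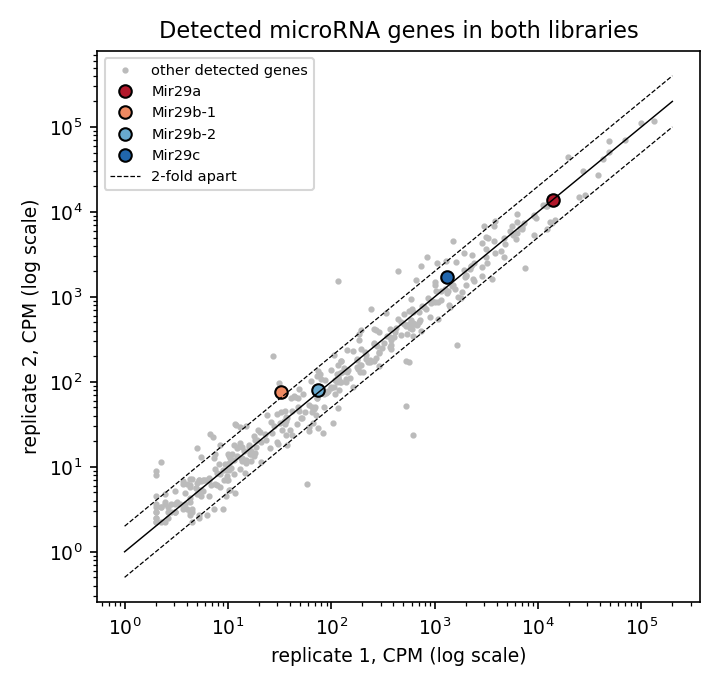
Levels of the 417 detected microRNA genes in replicate 1 (horizontal) and replicate 2 (vertical), in CPM on log scales, with lines of equality (solid) and of a 2-fold difference (dashed). Mir29a, Mir29c and Mir29b-2 lie between the dashed lines, and Mir29b-1 lies above them at 32.7 and 76.6 CPM.

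MicroRNAs known from cell types of the brain and blood also differed between the libraries, and within most lists the members went both ways in the same binomial test. Over all tested genes, 24.7% were called higher in replicate 2 and 34.5% lower, and no list was tested against these shares. Of the 3 oligodendrocyte microRNAs, Mir338 and Mir219a-2 were called higher in replicate 2, the direction of Mir29c and Mir29b-1, and none was called lower (sums of 3393 and 5622 CPM in replicates 1 and 2). Of the 4 astroglial microRNAs outside the family, 2 were called higher in replicate 2 and 1 lower. Mir27b stood at 1227 and 1701 CPM and Mir31 at 115 and 1551 CPM, while Mir23b, at 25038 and 14908 CPM, set the direction of the sum (26409 and 18190 CPM).

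Of the 11 neuronal microRNAs that were detected, from a list of 13, 1 was called higher in replicate 2 and 8 lower. The higher one was Mir132, induced by neuronal activity, at 19682 and 44698 CPM, and it alone turned the sum upwards, while Mir128-1 stood at 13556 and 7493 CPM and Mir137 at 12338 and 6351 CPM. Among red blood cell microRNAs 1 was called higher and 2 lower, with Mir451a at 529 and 52.2 CPM and Mir486 at 15.0 and 29.9 CPM. For microglia and leukocytes 1 was called higher and 2 lower (sums of 1934 and 2080 CPM), and for vessels 2 higher and 1 lower (20418 and 21812 CPM). No member of these lists was without reads in both libraries. The part of these differences in the ratios of Mir29c and Mir29b-1 was not tested.

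The genes most like each member in their 2 levels were found by the distance over log2(CPM + 1) in the 2 libraries. Nearest to Mir29a was Mir126a, the endothelial microRNA (13131 and 14813 CPM, distance 0.14), then Mir328 (0.31) and Mir151 (0.32). Nearest to Mir29c were Mir1249 (1371 and 1775 CPM, distance 0.06), Mir27b (0.11), a member of the astroglial list, and Mir181b-2 (0.15).

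For Mir29b-2 the nearest genes were Mir8112 (distance 0.13), Mir6540 (0.26) and Mir7-1 (0.28). For Mir29b-1 they were Mir26a-2 (31.2 and 96.4 CPM, distance 0.33), mmu-mir-3535 (0.40) and Mir200c (0.43). In the order of mean CPM, Mir29a stood between Mir23b and Mir126a, and Mir29c between Mir1249 and Mir222. Mir29b-2 stood between Mir6540 (79.1 CPM) and Mir8112 (71.8 CPM), and Mir29b-1 between Gm49347 (55.4 CPM) and Mir412 (54.5 CPM). From each of these neighbours in level order except Mir23b and Mir8112, the mean of the member differed by less than the member's own SD. With 2 libraries, likeness of this kind is a matter of level and of 1 ratio.

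The miR-29b loci were also set beside other microRNAs with numbered pairs of loci. Of 25 such pairs listed, 24 were found under their symbols, and in 19 both loci were detected. By their summed level, at 131 ± 35.0 CPM, the miR-29b loci ranked 16th of the 24, whose median was 326 CPM. The highest were Mir128-1 and Mir128-2, neuronal microRNAs, at 10524 and 2301 CPM.

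The 2 miR-29b loci were 1.40-fold apart by their mean levels, and 2 of the other pairs were closer and 16 were wider, with a median of 2.56-fold over the 19. This rank rests on the mean of the libraries. In replicate 1 alone the miR-29b loci were 2.25-fold apart, with 6 pairs closer and 12 wider, and in replicate 2 alone they were 1.04-fold apart, with none of the other 18 pairs closer. Pairs with a wide gap included Mir219a-1 and Mir219a-2, of oligodendrocytes, at 4.99 and 1783 CPM, and Mir181b-1 and Mir181b-2 at 19.6 and 1424 CPM. The clusters that hold the miR-29b loci differed 8.77-fold by their mean levels. By the inference above, reads of a strand that is the same at both loci of a pair are missing from these counts, so the ratio of transcription between loci was not measured. For Mirlet7a-1 and Mirlet7a-2, RefSeq listed 0 identical strands, with 1 strand listed for Mirlet7a-2.

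**Figure D5:**
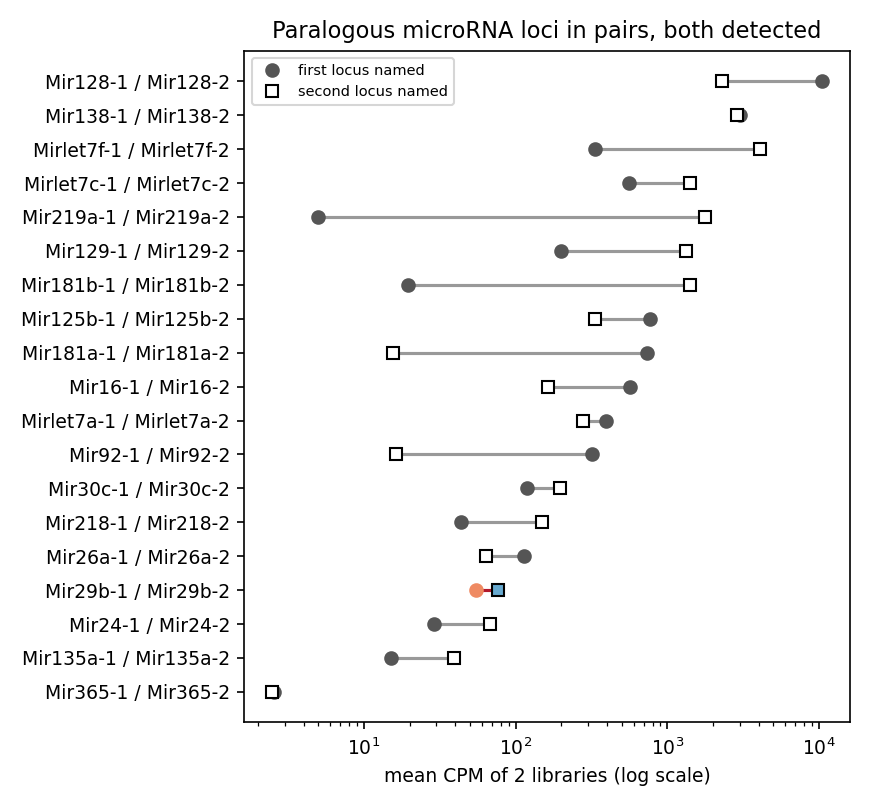
Mean CPM of 2 libraries (log scale) at both loci of 19 numbered pairs of microRNA loci, ordered by their sum, with the first locus named as a circle and the second as a square. Mir29b-1 and Mir29b-2 (coloured) stand at mean levels of 54.6 and 76.4 CPM, among the lower sums.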

How the data were processed

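MicroRNA-seq was carried out on 2 libraries of 1 group. The authors deposited raw read counts per microRNA gene, made against mm10 and GENCODE M21 per the notes deposited with the files; which aligner and counter were run is not given in the sources used here. Its layout, with 4 lines of unassigned reads (unmapped, several places, no feature, ambiguous), is that of STAR gene counts, an inference. These lines stayed out of library sizes and tests. They held 69.9% of the reads in replicate 1 and 73.9% in replicate 2. All 2202 gene identifiers were found in GENCODE M21. The effect of strain differences from the mm10 reference was not measured.

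CPM was computed from the sense counts. Genes with at least 10 counts in each library were compared between libraries by an exact binomial test (SciPy 1.17.1), and adjacent pairs within 10 kb by Fisher's exact test, each with Benjamini-Hochberg adjustment and a threshold of 0.05. With 1 group there is no contrast for a model of conditions. The spread was fitted with edgeR 4.0.16 (R 4.3.3, TMM factors), and precursors were folded with ViennaRNA 2.7.2. Alternatives were the column without strand, TMM, DESeq2 1.42.0 size factors, all reads as the total, other count minimums, 1 kb for pairs, and single libraries. The steps were tested on simulated data, in which the binomial and Fisher tests met counting error alone and not the wider spread of these libraries. A gene without reads could reach 3 counts, 0.609 CPM in replicate 1 and 0.675 in replicate 2.

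Named genes were the members, the 3 nearest to each by level, their neighbours in level order, and up to 3 of each list by mean CPM; any other gene was picked with its values in view. The members and lists were chosen with earlier results of these data known. Counts of the 2 libraries differed beyond sampling noise (chi-square of 503 per degree of freedom), which a library deposited again would not; n = 2 counts libraries, and whether they come from separate animals is not stated.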

Additional observations from a re-analysis of the deposited data

How the results depend on the processing

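No paired analysis was possible because the 2 libraries form 1 group. Of 91 values recomputed, 78 kept their direction and call, stayed within the spread between libraries or, for counts of genes and pairs, stayed within a set ratio. Part of these could not have come out otherwise. Leaving out 1 of 2 libraries always moves a mean by less than their SD. A count filter leaves the log2 ratio of a gene as it was, and the column without regard to strand held the same counts for the members. The mean levels were lower when scaled to all reads of the library, which adds the unassigned reads to the total: 3940.4 CPM for Mir29a, 425 for Mir29c, 21.4 for Mir29b-2 and 14.9 for Mir29b-1. In the column without regard to strand, whose total is smaller, Mir29a was at 15094 CPM and Mir29b-2 at 82.3 CPM. Scaled by precursor length, an alternative added after seeing the data, Mir29a was at 13062 CPM. The log2 ratio between the libraries turned for Mir29a to 0.0298 with TMM and to 0.0251 with DESeq2 size factors, and for Mir29b-2 to -0.10 with all reads as the total, where it passed the binomial threshold neither way; the change of scale alone accounts for these. Genes at least 2-fold apart numbered 295 without a count filter and 29 with at least 100 counts, against 49, and 42 pairs were called within 1 kb, against 67, as fewer or more were tested. The log2 ratio of the clusters ranged from 2.95 without replicate 1 to 3.34 without replicate 2, and was 3.21 for Mir29a against Mir29c alone. Depth limits the miR-29b loci most, at 161 to 363 reads, and reads that match several places are taken to be missing from them. The folds between paired loci within each library were also added after seeing the data.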
